A study of Mus musculus with 10 samples.

Results

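Wild-type granulocyte-monocyte progenitors (GMP) were compared with wild-type megakaryocyte-erythroid progenitors (MEP), using the 4 of 10 RNA-seq libraries of the series that hold these cells, 2 of each. Both populations were sorted from mouse bone marrow with intact Runx1 (Runx1wt/wt), from animals that carry the vav-Cre transgene, which expresses Cre recombinase across blood cells, so the transgene is shared by GMP and MEP. The gates had lin- sca- kit+ CD41- CD105- in common. GMP were CD16/32+ CD150- and MEP were CD16/32- CD150+. The other libraries come from marrow in which floxed Runx1 alleles were deleted by the same Cre (Runx1Δ/Δ, here Runx1-deleted). Its GMP and MEP, 2 libraries each, are used below for 1 further comparison. A further Runx1-deleted population, labelled XMP and CD150_CD16/32, also has 2 libraries. Its levels are not compared here. The XMP libraries enter the fits of all 10 libraries, the one behind the further comparison included, where they add to the estimate of spread. The labels used here give no age, sex or number of animals. Whether both libraries of a gate came from different mice is not stated, so each p-value reflects library-to-library spread alone.

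GMP give rise to neutrophils, monocytes and, through related progenitors, to other granulocytes, and MEP give rise to red cells and to megakaryocytes, which shed platelets. C/EBP factors, PU.1 and Gfi1 are known for driving the granulocyte and monocyte programme, and Gata1, Klf1, Tal1 and Gfi1b for the red cell and platelet programmes. PU.1 and Gata1 are known to restrain each other. Cells at this stage already transcribe genes for proteins of the mature cells, at levels that differ widely between genes.

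Levels are RPKM, reads scaled to gene length and to the reads of the library, so they can be set beside each other between genes. A gene was tested where 2 or more of the 4 libraries reached 1 RPKM, which held for 10363 of 23240. A gene expressed in 1 gate alone can pass, so list counts include members that passed only through the gate where they are high. Differences are log2(RPKM + 1) of GMP minus MEP ± SE, which understates the change of genes with low levels, and a gene was called where limma gave an adjusted p under 0.05 over all tested genes. The read totals behind the values were 20.8 to 45.4 M per library, and a single read on 1 kb was worth 0.0220 to 0.0480 RPKM. The 2 GMP libraries correlated at 0.985 across genes and the 2 MEP libraries at 0.966. Long genes read lower and short genes higher in MEP replicate 1 than in MEP replicate 2: the median deviation in the longest of 5 length classes was -0.37 and 0.33, and in the shortest 0.23 and -0.18. In GMP the classes lay between -0.118 and 0.0715. In bulk RNA a smaller share of cells that express a gene and less RNA per cell cannot be told apart.

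Of the tested genes 955 were higher in GMP (9.22%) and 628 were lower (6.06%). An unadjusted p under 0.05 was reached by 2427 genes. In all 1583 called genes both GMP libraries lay on the same side of both MEP libraries. A difference of at least 4-fold was reached by 274 genes higher and 135 lower in GMP, and at least 16-fold by 46 and 18. The median difference over all tested genes was -0.0521. The count of called genes depends on which libraries are used: it was 765 and 729 without GMP replicate 1 or 2, and 2755 and 2848 without MEP replicate 1 or 2. The libraries of GMP come from lanes 3 and 2 and those of MEP from lanes 3 and 5. The difference between the 2 libraries of lane 3, which has no test, was computed for 160 called genes. In 50 of them the value moved by more than the SE, such as Elane with 8.58 in place of 9.12 and Ly6c2 with 6.14 in place of 6.77. Its sign could not differ, because in every called gene both GMP libraries lay on the same side of both MEP libraries. Without MEP replicate 1 the calls split into 1188 higher and 1567 lower, and without GMP replicate 2 into 511 and 218.

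**Figure D1:**
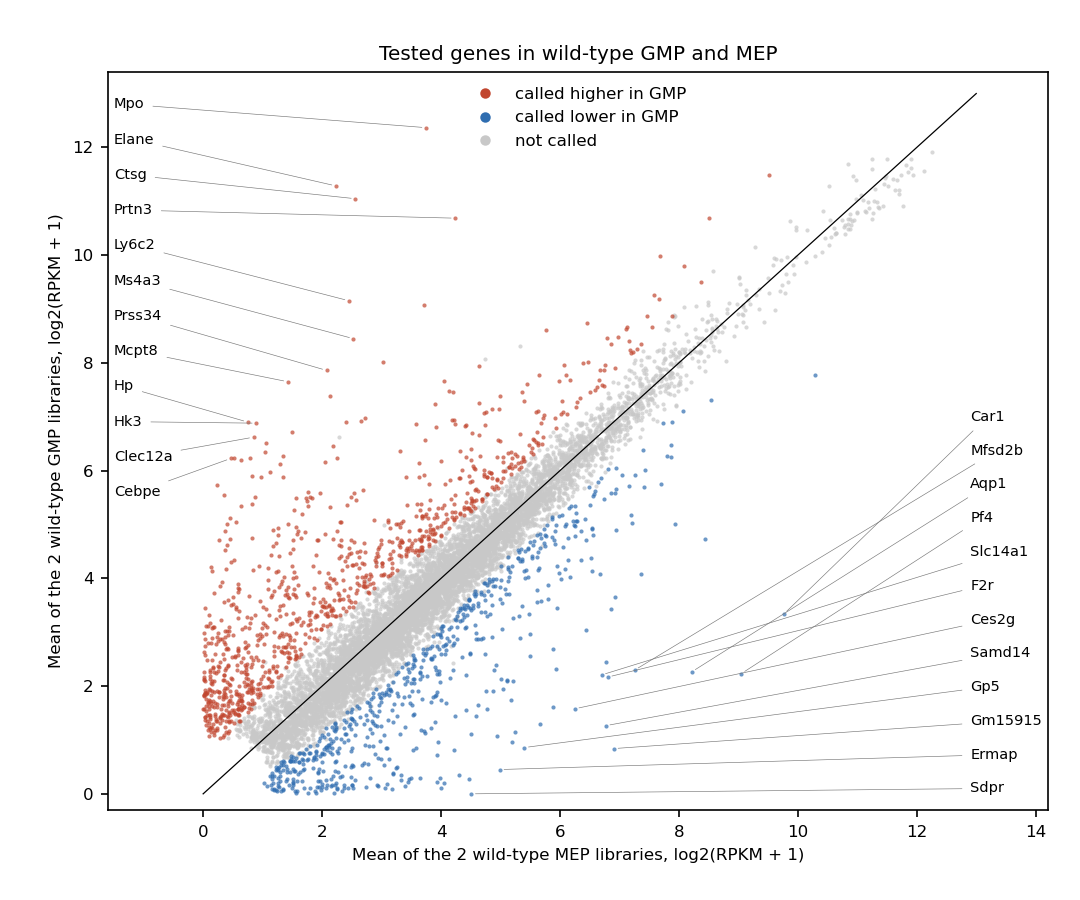
Mean level of each tested gene in the 2 wild-type MEP libraries (x axis) and the 2 wild-type GMP libraries (y axis), both as log2(RPKM + 1), with called genes in colour and the 12 largest differences in each direction named. The genes of GMP granules stand apart at the upper left, where Mpo has 5644 and 4918 RPKM in GMP, and the line marks equal levels.

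The 3 largest differences toward GMP were those of Elane, Mpo and Ctsg, enzymes of the primary granules that neutrophils store for killing microbes. Elane, neutrophil elastase, was at 2353 and 2638 RPKM in the 2 GMP libraries and at 5.14 and 2.25 in the 2 MEP libraries (log2 9.12 ± 0.29, adjusted p = 2.50e-12). Mpo, myeloperoxidase, was the most abundant of them with 5644 and 4918 RPKM in GMP and 13.03 and 11.9 in MEP (log2 8.62 ± 0.30, adjusted p = 4.80e-12). The cathepsin G gene Ctsg stood at 1955 and 2277 against 5.13 and 4.66 RPKM (log2 8.49 ± 0.25, adjusted p = 1.20e-12). Prtn3, proteinase 3, stood at 1706 and 1588 against 21.6 and 14.1 RPKM (log2 6.47 ± 0.28, adjusted p = 8.63e-11). Together these 4 genes held 2.49% and 2.44% of the summed RPKM of the GMP libraries and 0.00874% and 0.00827% of the MEP libraries. The replicates of each gate were close in all 4 genes compared with the distance between the gates.

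The 250 bases before the start of Mpo, Elane and Prtn3 are shown because these 3 genes differ together and their promoters share a motif. Sequences are those of RefSeq on GRCm38.p6, 5′ to 3′ on the strand of the gene. Capitals mark GAGGAAGT, a site of the PU.1 type, found on either strand. Mpo lies at chr11:87793534-87793783, plus strand, Elane at chr10:79886062-79886311, plus strand and Prtn3 at chr10:79879417-79879666, plus strand.
Mpo: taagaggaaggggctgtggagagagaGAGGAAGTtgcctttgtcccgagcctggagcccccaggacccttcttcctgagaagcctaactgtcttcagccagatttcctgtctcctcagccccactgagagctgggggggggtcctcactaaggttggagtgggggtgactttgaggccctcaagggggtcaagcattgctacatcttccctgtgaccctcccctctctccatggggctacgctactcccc
Elane: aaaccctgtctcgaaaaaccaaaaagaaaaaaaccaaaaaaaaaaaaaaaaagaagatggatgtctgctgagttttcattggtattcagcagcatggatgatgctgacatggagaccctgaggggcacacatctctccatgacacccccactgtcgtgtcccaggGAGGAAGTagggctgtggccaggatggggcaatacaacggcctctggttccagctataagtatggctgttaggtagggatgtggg
Prtn3: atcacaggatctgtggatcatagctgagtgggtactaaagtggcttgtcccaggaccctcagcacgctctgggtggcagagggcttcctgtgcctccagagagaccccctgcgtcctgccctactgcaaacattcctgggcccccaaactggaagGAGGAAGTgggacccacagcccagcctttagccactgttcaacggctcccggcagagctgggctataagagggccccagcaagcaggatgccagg

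In each of the 3 sequences the motif occurs once, and it starts 224 bases before the start of Mpo, 85 before that of Elane and 95 before that of Prtn3. Of all 27025 RefSeq promoters of this length 2.44% hold it. Among tested genes with a promoter in the table (8445 of 10363) it was found in 39 of 756 called higher in GMP (5.16%), in 13 of 489 called lower (2.66%) and in 166 of 7200 not called (2.31%). Ctsg holds none, and has TGTGGT, the letters of a RUNX site, 79 bases before its start, as 14.18% of all promoters do on either strand. The promoter of Cebpa holds none of the 4 motifs searched, which were these 2, AGATAA for GATA factors and TTNCNNAA for C/EBP factors, each on both strands. TTNCNNAA was in 36.9% of all promoters, in 33.2% of the promoters of genes called higher, 29.4% of those called lower and 27.9% of those not called. A match describes the letters of this window, not binding.

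Of 17 tested genes listed for primary granules 16 were higher in GMP and 0 lower (median 2.42). The list also holds genes not particular to these granules, such as Ms4a3 and Nkg7. Hp, haptoglobin, which binds free hemoglobin, was at 122 and 115 RPKM in GMP and 0.674 and 0.688 in MEP (log2 6.15 ± 0.27, adjusted p = 9.10e-11). Ms4a3, a membrane protein of granulocyte-monocyte progenitors, was at 318 and 379 against 6.03 and 3.504 RPKM (log2 5.95 ± 0.26, adjusted p = 8.63e-11). The member that was not called was Srgn, the core protein on which granule proteases are packed, with 1042 and 1240.5 RPKM in GMP and 716 and 521 in MEP (log2 0.90 ± 0.43, adjusted p = 0.224). Srgn was thus abundant in both MEP libraries, where Elane, Mpo, Ctsg and Prtn3 were each below 25 RPKM. Nkg7, a granule membrane protein, was at 263 and 323 against 178 and 122 RPKM (log2 0.98 ± 0.30, adjusted p = 0.0305).

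Genes of later neutrophil stages were higher in GMP in part. Of 19 listed 14 were tested, and 11 were higher in GMP and 0 lower (median 1.74), and 7 were higher without GMP replicate 2. Csf3r, the receptor of the granulocyte growth factor G-CSF, was at 36.97 and 25.1 RPKM in GMP and 1.24 and 2.12 in MEP (log2 3.57 ± 0.32, adjusted p = 4.49e-07). Fcnb, a ficolin of neutrophil granules, was at 10.6 and 16.6 against 0.310 and 0.124 (log2 3.56 ± 0.31, adjusted p = 3.35e-07). S100a8, a calcium-binding alarmin, was at 98.9 and 254 against 16.5 and 16.5 RPKM (log2 3.19 ± 0.33, adjusted p = 1.98e-06), and the GMP libraries differed from each other more than 2-fold. Of the members not called, Ngp, neutrophilic granule protein, was at 1.23 and 2.35 RPKM in GMP and 1.18 and 2.01 in MEP (log2 0.09 ± 0.29, adjusted p = 0.920), and Camp, cathelicidin, at 1.01 and 1.44 against 0.642 and 0.993 (log2 0.29 ± 0.25, adjusted p = 0.589). Ltf, lactoferrin, and Mmp9, gelatinase B, were below 1 RPKM in all 4 libraries and were not tested. Ngp, Camp, Ltf and Mmp9 were chosen after their values were seen.

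All 21 tested monocyte and dendritic cell genes were higher in GMP (median 3.42). Ly6c2, a surface antigen of inflammatory monocytes, was at 507 and 631 RPKM in GMP and 6.21 and 2.72 in MEP (log2 6.77 ± 0.29, adjusted p = 7.67e-11). Clec12a, an inhibitory lectin receptor, was at 91.4 and 103 against 0.915 and 0.684 RPKM (log2 5.77 ± 0.28, adjusted p = 2.37e-10). The coagulation factor gene F13a1, whose protein also acts in platelets, was higher in GMP with 85.3 and 64.03 against 0.378 and 0.493 RPKM (log2 5.71 ± 0.30, adjusted p = 6.12e-10). Antigen presentation genes were included: H2-Aa, a chain of MHC class II, was at 50.2 and 37.8 against 2.65 and 2.45 RPKM (log2 3.65 ± 0.29, adjusted p = 9.27e-08). It was named after its values were seen. The remaining 5 members of the list, among them Cx3cr1 and Siglech, were below 1 RPKM in all 4 libraries.

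Genes of mast cells, basophils and eosinophils were higher in GMP as well, some of them at more than 100 RPKM. Mcpt8, a protease of basophils, was at 183 and 217 RPKM in GMP and 2.39 and 0.971 in MEP (log2 6.27 ± 0.29, adjusted p = 1.24e-10). Prss34, a further protease of basophils and mast cells, was at 243 and 219.5 against 4.36 and 2.06 (log2 5.84 ± 0.28, adjusted p = 2.01e-10). Hdc, the enzyme that makes histamine, was at 110.2 and 97.1 against 2.14 and 1.52 (log2 5.21 ± 0.27, adjusted p = 5.41e-10). Of 19 tested mast cell and basophil genes 15 were higher and 1, Gata2, was lower in GMP (median 2.63). Prg2, eosinophil major basic protein, was at 519 and 557 RPKM in GMP and 17.1 and 7.201 in MEP (log2 5.47 ± 0.31, adjusted p = 1.58e-09), and Epx, eosinophil peroxidase, at 41.7 and 25.9 against 0.439 and 0.311 (log2 4.62 ± 0.33, adjusted p = 2.69e-08). Of 8 tested eosinophil genes 7 were higher and 0 lower (median 3.19). Tpsb2, a tryptase of mature mast cells, was at 0.646 and 0.749 RPKM in GMP and listed at 0 in both MEP libraries, and Tpsab1 was listed at 0 in all 4. Whether separate cells of the gate carry these transcripts was not tested.

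Receptors for myeloid growth factors were mostly higher in GMP, with 14 of 17 tested members higher and 2 lower (median 1.70). The counts were 9 and 0 without GMP replicate 1, and 0 lower remained without GMP replicate 2. Csf1r, the receptor of the macrophage growth factor, was at 34.3 and 22.7 RPKM in GMP and 0.177 and 0.398 in MEP (log2 4.49 ± 0.33, adjusted p = 3.29e-08). Csf2rb, the signalling chain shared by the receptors of IL-3, IL-5 and GM-CSF, was at 31.9 and 26.9 against 1.29 and 1.47 (log2 3.67 ± 0.31, adjusted p = 1.62e-07). Flt3, a receptor of early lymphoid and dendritic cell progenitors, was at 30.5 and 20.2 against 1.43 and 2.28 (log2 3.19 ± 0.33, adjusted p = 1.73e-06). The 2 members lower in GMP were Il17ra, a receptor of IL-17 (log2 -0.85 ± 0.24, adjusted p = 0.0183; 0.142 and 0.279 without GMP replicate 1 or 2), and Il1rl1, the IL-33 receptor (log2 -1.13 ± 0.32, adjusted p = 0.0201; 0.166 and 0.469).

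Genes of phagocyte functions were mostly higher in GMP. Of 8 tested NADPH oxidase genes, which encode the enzyme that makes superoxide, 6 were higher in GMP and 0 lower (median 1.98). The regulatory subunit Ncf1 was at 67.97 and 72.2 RPKM in GMP and 2.62 and 3.62 in MEP (log2 4.12 ± 0.27, adjusted p = 8.68e-09) and the catalytic subunit Cybb at 4.995 and 6.84 against 0.162 and 0.426 (log2 2.41 ± 0.28, adjusted p = 7.97e-06). The membrane partner Cyba and the GTPase Rac1, which serve other cells too, were not called (log2 0.44 ± 0.28, adjusted p = 0.405, and log2 0.03 ± 0.24, adjusted p = 0.969). Of 24 listed sensors of microbes 15 were tested and 9 were higher (median 1.16). Of 19 listed receptors of chemokines and other chemoattractants, lipids among them, 8 were tested, with 7 higher and 1 lower (median 2.20). Among genes with a mean of at least 5 RPKM, 5 sensors and 3 of these receptors were higher. A member such as S1pr3 passed the filter only through GMP, where it is high. Cxcr4, the receptor of the stromal chemokine CXCL12 that holds progenitors in marrow, was at 132 and 147 RPKM in GMP and 25.6 and 30.2 in MEP (log2 2.29 ± 0.24, adjusted p = 2.07e-06). Of the receptors of sphingosine-1-phosphate, S1pr3 was higher in GMP, at 6.78 and 7.06 against 0.129 and 0.260 RPKM (log2 2.73 ± 0.27, adjusted p = 1.40e-06), and S1pr1 was higher in MEP, at 2.104 and 2.34 against 11.004 and 9.27 RPKM (log2 -1.79 ± 0.31, adjusted p = 0.000444; 0.0573 without GMP replicate 1). Lysosomal genes followed with 14 of 22 higher in GMP and 0 lower (median 1.16; 8 without GMP replicate 1).

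**Figure D2:**
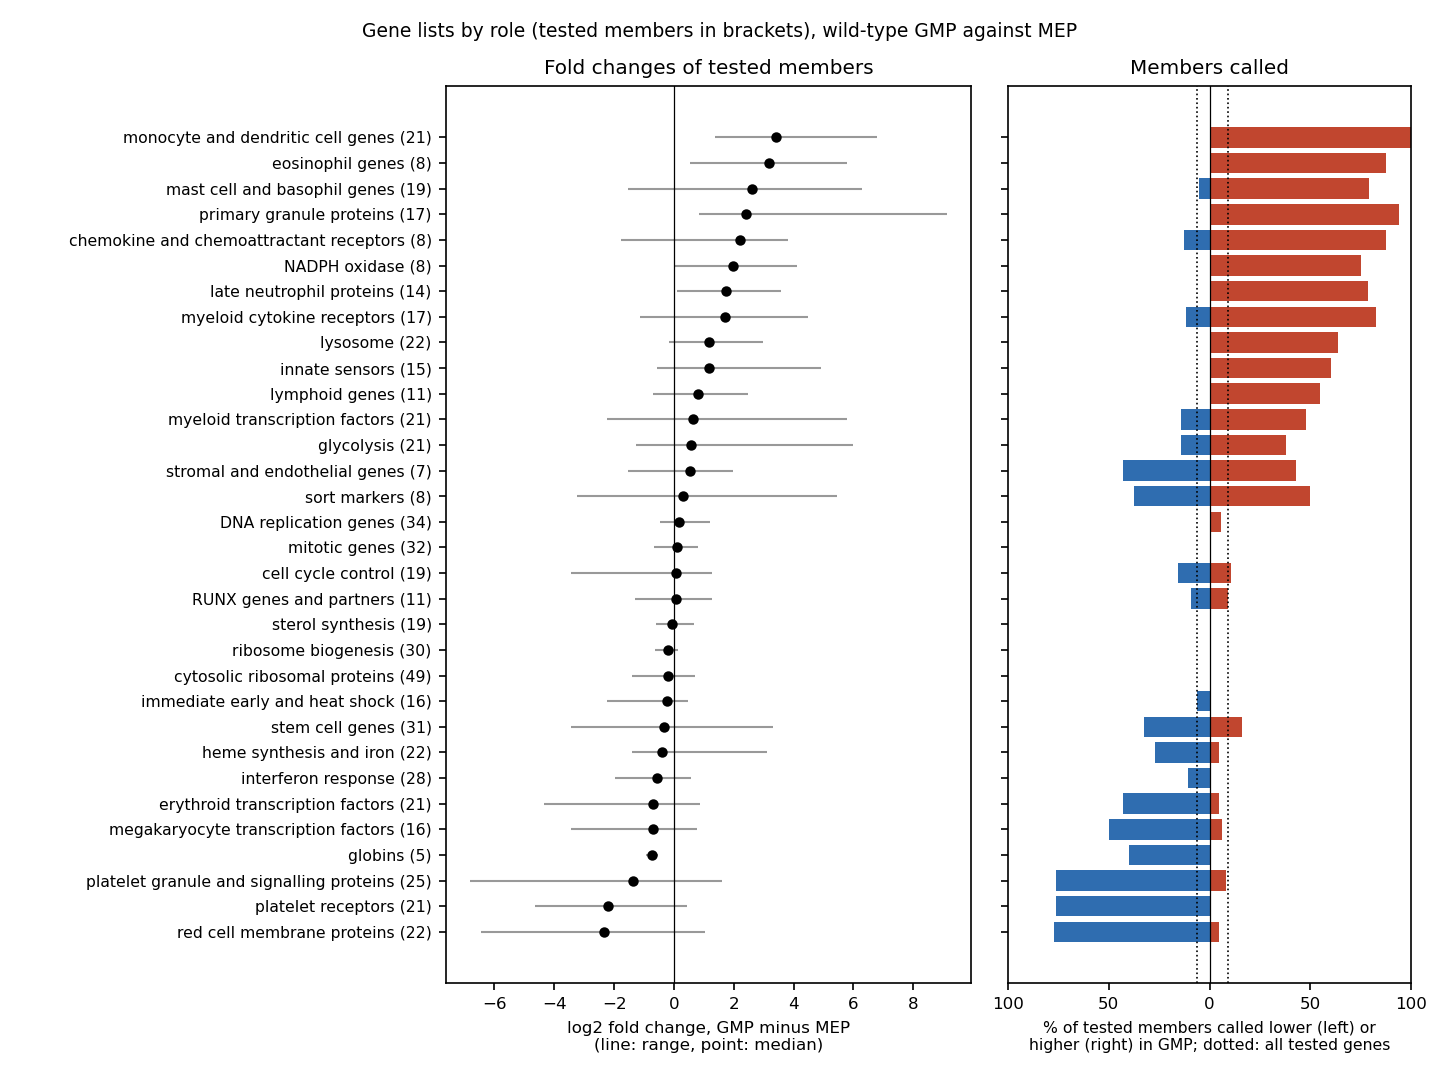
Left, the range and the median log2 fold change (GMP minus MEP) of the tested members of 32 gene lists, with the number tested in brackets. Right, the percentage of these members called lower (blue) or higher (red) in GMP, where dotted lines mark the 9.22% and 6.06% of all tested genes. Monocyte and dendritic cell genes reach 100% on the right, red cell membrane and platelet lists exceed 75% on the left, and lists of cell division and ribosomes lie near the centre.

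Among 21 tested myeloid transcription factor genes 10 were higher in GMP and 3 lower (median 0.65). All 4 C/EBP genes of the list differed. Cebpa, which is required for GMP to form, was at 107 and 133 RPKM in GMP and 5.54 and 5.11 in MEP (log2 4.25 ± 0.25, adjusted p = 2.08e-09). Cebpe, which acts later in granulocytes, was at 76.2 and 71.5 against 0.599 and 0.160 (log2 5.78 ± 0.30, adjusted p = 6.12e-10). Cebpd was at 9.76 and 11.8 against 0.219 and 0.331 RPKM (log2 3.20 ± 0.29, adjusted p = 4.92e-07) and Cebpb at 7.12 and 12.5 against 1.26 and 0.908 (log2 2.33 ± 0.33, adjusted p = 5.40e-05). Irf8, a factor of monocytes and dendritic cells, was at 139.8 and 98.6 against 3.96 and 4.66 (log2 4.48 ± 0.26, adjusted p = 2.08e-09). The gene of PU.1, listed as Sfpi1, was higher in GMP but well above the minimum in MEP, at 160.2 and 145 against 28.01 and 19.6 RPKM (log2 2.65 ± 0.25, adjusted p = 6.90e-07). Gfi1, described with its relative below, Id2, Irf5 and Klf4 were the other members higher in GMP. The 3 lower were Egr1, an immediate early factor, at 0.727 and 0.219 against 6.02 and 5.68 RPKM (log2 -2.24 ± 0.29, adjusted p = 2.17e-05), Mef2c (log2 -1.28 ± 0.31, adjusted p = 0.00715; 0.161 and 0.111 without GMP replicate 1 or 2) and Nfe2l2 (log2 -0.88 ± 0.25, adjusted p = 0.0199; 0.0779 and 0.419). Without either GMP replicate Egr1 was the member still called lower.

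Several factors of the red cell and platelet lineages were higher in MEP. Klf1, which activates red cell genes, was at 5.53 and 3.41 RPKM in GMP and 123 and 93.3 in MEP (log2 -4.33 ± 0.27, adjusted p = 5.65e-09). Gata1 was at 11.6 and 7.96 against 128 and 103 RPKM (log2 -3.44 ± 0.26, adjusted p = 4.26e-08) and its cofactor Zfpm1, FOG1, at 12.2 and 11.03 against 104 and 138 (log2 -3.26 ± 0.25, adjusted p = 4.83e-08). Tal1, which binds beside Gata1, was at 15.4 and 11.9 against 52.4 and 56.8 RPKM (log2 -1.93 ± 0.25, adjusted p = 2.07e-05). Gata2, which precedes Gata1, was above 60 RPKM in all 4 libraries, at 87.1 and 65.8 against 216 and 227 RPKM (log2 -1.53 ± 0.26, adjusted p = 0.000372; 0.0712 without GMP replicate 2). Of 21 tested erythroid factors 9 were lower and 1 higher in GMP (median -0.68), and of 16 megakaryocyte factors, some of them on both lists, 8 were lower and 1 higher (median -0.71). Without MEP replicate 2, 6 megakaryocyte factors were higher. The members higher in GMP were Lyl1 (log2 0.89 ± 0.26, adjusted p = 0.0243) and Hoxb4 (log2 0.77 ± 0.25, adjusted p = 0.0429). Neither kept its call without GMP replicate 1 (adjusted p = 0.334 and 0.284) or GMP replicate 2 (0.151 and 0.229), and Lyl1 lost it without MEP replicate 2 as well (0.0845).

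Several factors shared by the lineages were not called. Runx1 was at 28.5 and 26.8 RPKM in GMP and 17.2 and 25.5 in MEP (log2 0.38 ± 0.26, adjusted p = 0.453), and its partner Cbfb at 56.1 and 54.4 against 50.5 and 55.997 (log2 0.05 ± 0.23, adjusted p = 0.946). Myb, which keeps progenitors dividing, was at 191 and 244 against 178 and 239 (log2 0.07 ± 0.29, adjusted p = 0.945). Erg (log2 0.31 ± 0.28, adjusted p = 0.633), Fli1 (log2 0.13 ± 0.37, adjusted p = 0.907) and Etv6 (log2 0.50 ± 0.26, adjusted p = 0.284), ETS factors of stem cells and megakaryocytes, were not called either. A gene that was not called is not shown to be equal. For Fli1 the 2 MEP libraries lay on both sides of GMP, at 4.11 and 11.1 RPKM against 7.93 and 7.32. Of 11 RUNX genes and partners 1 was higher and 1 lower, shares near those of all tested genes. Runx2, known from bone, was higher in GMP at 10.9 and 12.7 against 3.11 and 5.74 RPKM (log2 1.28 ± 0.33, adjusted p = 0.0113; 0.178 and 0.331 without GMP replicate 1 or 2). Cbfa2t3, a corepressor also called ETO2, was higher in MEP at 15.6 and 10.4 against 29.96 and 35.7 RPKM (log2 -1.30 ± 0.27, adjusted p = 0.00234; 0.141 without GMP replicate 2).

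**Figure D3:**
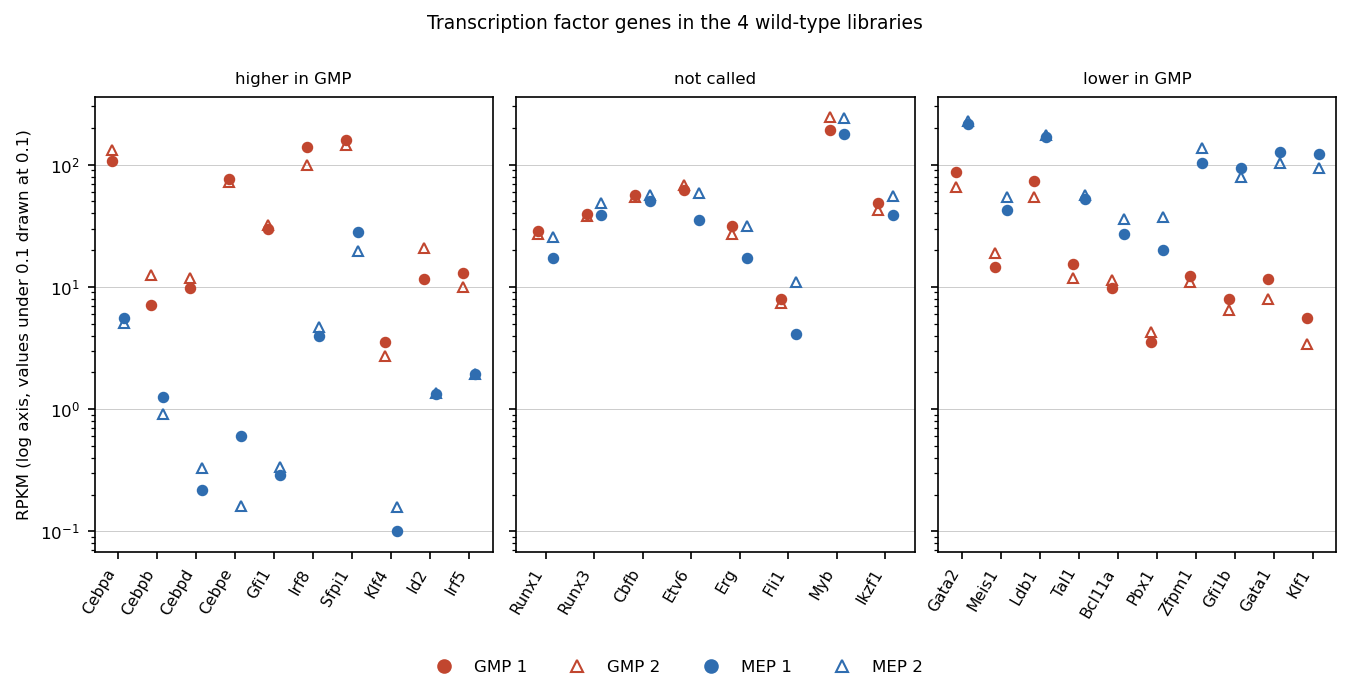
RPKM on a log axis of 28 transcription factor genes in each of the 2 GMP (red) and 2 MEP (blue) libraries, circles for replicate 1 and triangles for replicate 2, with values under 0.1 drawn at 0.1. The GMP and MEP points of Cebpa, Gfi1, Gata1 and Klf1 lie apart, and those of Cbfb and Myb overlap.

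On the MEP side the platelet chemokine Pf4, platelet factor 4, had the largest difference, with 3.798 and 3.59 RPKM in GMP and 590.4 and 466 in MEP (log2 -6.81 ± 0.24, adjusted p = 5.54e-12). Gp5, platelet glycoprotein V, was at 0.906 and 0.723 against 41.6 and 40.9 RPKM (log2 -4.54 ± 0.30, adjusted p = 1.06e-08). F2r, the thrombin receptor PAR1, was at 3.7001 and 3.29 against 99.8 and 122 (log2 -4.63 ± 0.25, adjusted p = 9.49e-10). Treml1, a receptor of platelet granules, was at 1.11 and 0.786 against 38.9 and 32.6 RPKM (log2 -4.24 ± 0.31, adjusted p = 3.30e-08). Each of these genes was above 20 RPKM in both MEP libraries and below 5 in both GMP libraries. Of 21 tested platelet receptors 16 were lower in GMP and 0 higher (median -2.19).

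The 250 bases before the start of Gp5 and Pf4 are shown as the MEP counterpart of the granule promoters. Capitals mark matches to any of the 4 motifs on either strand, and the sources are as above. Gp5 lies at chr16:30310782-30311031, minus strand and Pf4 at chr5:90772185-90772434, plus strand.
Gp5: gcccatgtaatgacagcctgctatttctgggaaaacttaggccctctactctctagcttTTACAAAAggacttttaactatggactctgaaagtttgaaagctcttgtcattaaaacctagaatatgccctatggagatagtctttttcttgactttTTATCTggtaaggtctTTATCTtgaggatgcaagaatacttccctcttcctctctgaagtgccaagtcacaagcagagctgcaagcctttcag
Pf4: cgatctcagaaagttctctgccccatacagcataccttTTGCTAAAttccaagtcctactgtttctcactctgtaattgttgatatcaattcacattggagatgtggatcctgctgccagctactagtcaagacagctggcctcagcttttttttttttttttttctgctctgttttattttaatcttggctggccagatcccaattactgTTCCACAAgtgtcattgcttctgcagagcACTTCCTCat

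Gp5 holds the GATA letters at 2 places, as TTATCT, starting 93 and 77 bases before its start, and 1 match to the C/EBP letters, starting 191 bases before it. Pf4 holds no match to these GATA letters in this window. It has 2 C/EBP matches starting 212 and 39 bases before its start, and the PU.1 letters as ACTTCCTC, 10 bases before the start. Of all RefSeq promoters of this length 10.2% hold AGATAA on either strand. It was in 46 of 489 promoters of genes called lower in GMP (9.41%), in 57 of 756 of those called higher (7.54%) and in 387 of 7200 of those not called (5.38%). The promoters of Aqp1 and Klf1 hold no AGATAA on either strand in these bases. Other forms of the GATA site were not searched, so these counts do not show that a promoter lacks one.

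Platelet granule and signalling genes were lower in GMP in 19 of 25 tested members and higher in 2 (median -1.38), with 12 and 11 lower without GMP replicate 1 or 2. Vwf, von Willebrand factor, was at 0.322 and 0.228 RPKM in GMP and 12.86 and 24.6 in MEP (log2 -3.89 ± 0.34, adjusted p = 2.96e-07). Sdpr, a caveolae protein, was listed at 0 in both GMP libraries and at 12.93 and 30.6 RPKM in MEP. Taking 3 reads in each GMP library as the floor, 0.0246 and 0.0471 RPKM, its mean was at least 607-fold higher in MEP. Lat, an adaptor of the collagen receptor, was at 9.72 and 10.1 against 67.98 and 53.3 RPKM (log2 -2.49 ± 0.25, adjusted p = 1.40e-06). The 2 members higher in GMP were signalling proteins that other leukocytes use too, Arhgef6 (log2 1.61 ± 0.30, adjusted p = 0.000924; 0.0823 and 0.0637 without GMP replicate 1 or 2) and Rasgrp2 (log2 1.22 ± 0.24, adjusted p = 0.00126; 0.0614 without GMP replicate 1). Other members were low: Tubb1, the platelet tubulin, was at 0.482 and 0.443 RPKM in GMP and 0.782 and 2.13 in MEP and was not tested, and Gp6, a collagen receptor on the platelet receptor list, was below 1 RPKM in all 4 libraries.

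Red cell membrane and transport genes were higher in MEP. Car1, carbonic anhydrase 1, was at 7.62 and 10.6 RPKM in GMP and 878 and 857 in MEP (log2 -6.44 ± 0.25, adjusted p = 2.32e-11), and Car2 at 27.5 and 23.5 against 342 and 353 (log2 -3.72 ± 0.24, adjusted p = 9.20e-09). Aqp1, a water channel of red cells, was at 3.01 and 4.61 against 286 and 307 RPKM (log2 -5.97 ± 0.25, adjusted p = 5.69e-11). The blood group protein gene Ermap was at 0.281 and 0.453 against 22.4 and 39.2 RPKM (log2 -4.49 ± 0.34, adjusted p = 4.83e-08). Epor, the erythropoietin receptor, was at 0.261 and 0.341 against 8.14 and 8.13 RPKM (log2 -2.81 ± 0.28, adjusted p = 1.36e-06). It was chosen after its values were seen. Of 22 tested members 17 were lower in GMP and 1 higher (median -2.32). The exception was Cd24a, an antigen of many blood cells, at 116 and 155 against 63.3 and 67.2 RPKM (log2 1.03 ± 0.25, adjusted p = 0.00771; 0.0534 and 0.252 without GMP replicate 1 or 2).

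Some members of the membrane list were low in all 4 libraries. Slc4a1, the anion exchanger band 3, was at 0.0604 and 0.324 RPKM in MEP and 0.0717 and 0.0527 in GMP, and Epb4.2, a membrane skeleton protein, at 0.396 and 0.495 against 0.0434 and 0. Neither was tested. Of 5 tested globins 2 were lower in GMP, the alpha globins Hba-a1 (log2 -0.87 ± 0.28, adjusted p = 0.0430) and Hba-a2 (log2 -0.92 ± 0.28, adjusted p = 0.0311), and 0 were higher. Neither call held without GMP replicate 1 (adjusted p = 0.589 and 0.505) or GMP replicate 2 (0.0818 and 0.0772). Reads of these near-identical genes cannot be assigned well, so their separate levels are uncertain. Summed over the list, globins stood at 55.0 and 93.1 RPKM in GMP and at 131 and 123 in MEP, so globin transcripts were also present in GMP.

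Heme synthesis showed unequal steps. Alas1, the housekeeping enzyme of the entry step, was higher in GMP, at 30.1 and 21.9 against 2.12 and 2.12 RPKM (log2 3.10 ± 0.31, adjusted p = 1.26e-06). Alas2, its erythroid counterpart, was at 0.304 and 0.509 RPKM in GMP and 0.417 and 0.623 in MEP, below the minimum. Later steps were higher in MEP: Alad at 25.5 and 22.1 against 64.7 and 53.5 RPKM (log2 -1.27 ± 0.24, adjusted p = 0.00100; 0.0613 without GMP replicate 2) and Urod at 35.4 and 31.6 against 98.7 and 70.1 (log2 -1.29 ± 0.25, adjusted p = 0.00119; 0.0682). Steap3, an iron reductase of red cell precursors, was at 15.2 and 14.8 against 40.6 and 42.1 RPKM (log2 -1.41 ± 0.24, adjusted p = 0.000424). The transferrin receptor Tfrc (log2 0.23 ± 0.36, adjusted p = 0.819) and Fech, the last enzyme of the pathway (log2 -0.43 ± 0.29, adjusted p = 0.438), were not called, and both were named after their values were seen. Of 22 tested members 6 were lower in GMP and 1 higher (median -0.41). The lower ones were 3 and 1 without GMP replicate 1 or 2, and 4 were higher without MEP replicate 2.

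The largest differences toward MEP included genes outside the lists. Samd14, a protein that promotes Kit signalling in red cell precursors, was at 1.44 and 1.37 RPKM in GMP and 106 and 111 in MEP (log2 -5.51 ± 0.26, adjusted p = 2.17e-10). Mfsd2b, which exports sphingosine-1-phosphate from red cells and platelets, was at 4.497 and 3.33 against 149.8 and 154 (log2 -4.97 ± 0.25, adjusted p = 3.49e-10). Slc14a1, the urea transporter of red cells, was at 2.94 and 4.298 against 80.9 and 125 (log2 -4.47 ± 0.28, adjusted p = 5.65e-09). Ces2g, a carboxylesterase, was at 1.53 and 2.45 against 61.5 and 88.8 RPKM (log2 -4.67 ± 0.30, adjusted p = 5.85e-09), and the gene model Gm15915 at 0.525 and 1.06 against 157 and 81.3 (log2 -6.01 ± 0.33, adjusted p = 8.78e-10). In all 5 genes both MEP libraries were above 60 RPKM and both GMP libraries below 5.

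Some genes were at 5 RPKM or more in both libraries of 1 gate and under 0.1 in both of the other. There were 6 of GMP and 2 of MEP, and all are named here although the rule for naming did not cover them. Those of GMP were Igsf6 at 11.7 and 8.27 RPKM, Abcd2, a peroxisomal fatty acid transporter, at 8.38 and 7.05, Mrgpra2b at 7.87 and 7.38, Cd300lb, an activating myeloid receptor, at 7.69 and 6.21, Mefv, the inflammasome protein pyrin, at 6.32 and 5.16, and Mmp19, a matrix metalloproteinase, at 5.38 and 6.63. Those of MEP were Sdpr and Slc38a5, a glutamine transporter, with 13.1 and 16.8 RPKM in MEP and 0.0812 and 0.0776 in GMP.

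Some related genes differed in opposite directions. Gfi1, a transcriptional repressor that promotes neutrophil development, was at 29.7 and 32.4 RPKM in GMP and 0.288 and 0.338 in MEP (log2 4.61 ± 0.31, adjusted p = 1.16e-08), and its relative Gfi1b at 7.89 and 6.48 against 93.1 and 79.1 (log2 -3.41 ± 0.25, adjusted p = 3.46e-08). Mycn was at 2.16 and 2.53 RPKM in GMP and 35.3 and 35.1 in MEP (log2 -3.44 ± 0.29, adjusted p = 1.92e-07), whereas Myc was at 196 and 122 against 188 and 169.9 (log2 -0.20 ± 0.29, adjusted p = 0.793). Hk3, the hexokinase of myeloid cells, was at 128 and 106 against 0.563 and 1.15 RPKM (adjusted p = 2.01e-10) and Hk1, the form red cells keep, at 66.5 and 51.8 against 117 and 143 (log2 -1.13 ± 0.25, adjusted p = 0.00399; 0.195 without GMP replicate 2). Among phosphofructokinases Pfkp was higher in GMP (log2 1.13 ± 0.29, adjusted p = 0.0106; 0.371 and 0.0983 without GMP replicate 1 or 2) and Pfkm, its muscle form, was higher in MEP (log2 -1.11 ± 0.29, adjusted p = 0.0113; 0.0543 and 0.355). Pgam1, phosphoglycerate mutase, was at 408 and 376 against 54.6 and 51.9 RPKM (log2 2.86 ± 0.26, adjusted p = 4.29e-07). Of 21 tested glycolysis genes 8 were higher in GMP and 3 lower (median 0.59). The counts were 5 and 1 without GMP replicate 1, and 4 and 0 without GMP replicate 2. Myc and Pfkp were named after their values were seen, as were the groupings.

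**Figure D4:**
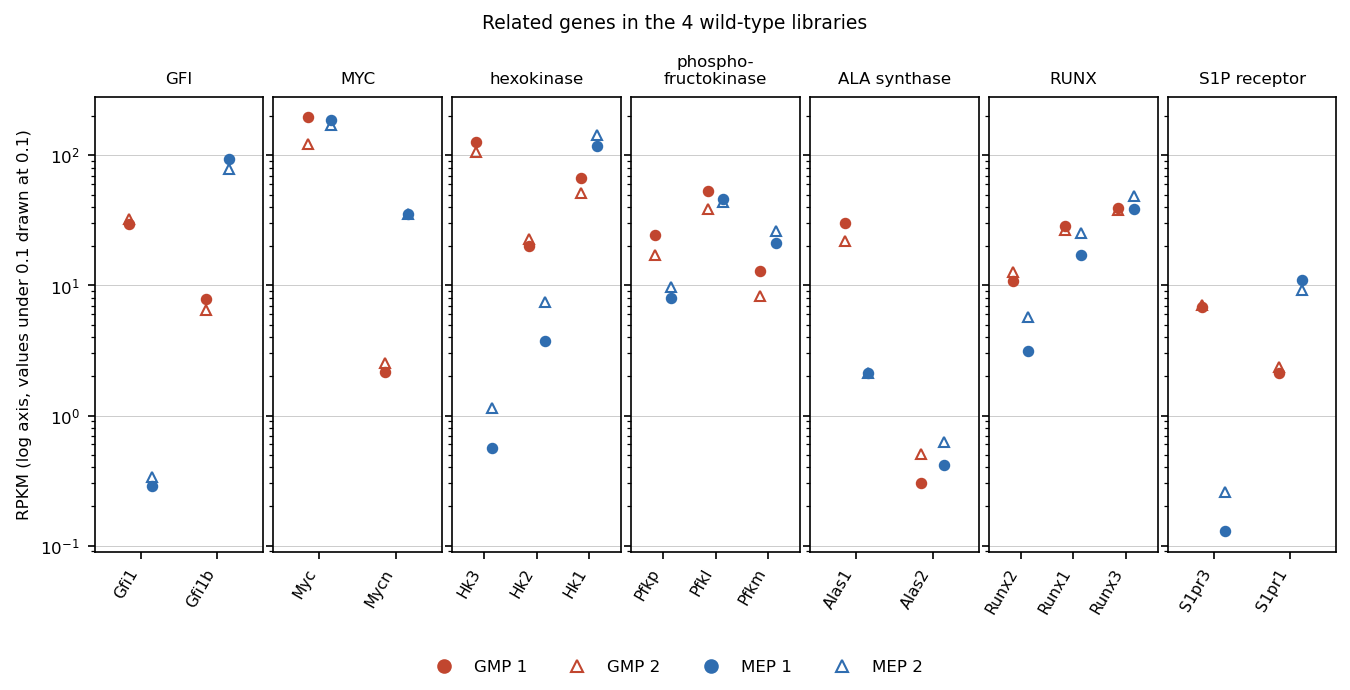
RPKM on a log axis of related genes in each of the 2 GMP (red) and 2 MEP (blue) libraries, circles for replicate 1 and triangles for replicate 2. Gfi1 and Hk3 lie high in GMP, Gfi1b, Mycn and Hk1 lie high in MEP, and Myc, Pfkl, Runx1 and Runx3 show no call.

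Stem cell genes split between the gates, with 10 of 31 lower and 5 higher in GMP (median -0.34). The counts were 5 and 3 without either GMP replicate, and 11 were higher without MEP replicate 2. Cd34, a sialomucin of stem cells and GMP that was not part of the gates, was at 255 and 237 RPKM in GMP and 20.999 and 27.005 in MEP (log2 3.32 ± 0.24, adjusted p = 3.92e-08). Satb1, a chromatin organiser linked to lymphoid potential, was at 12.02 and 11.9 against 0.996 and 1.49 (log2 2.54 ± 0.31, adjusted p = 1.19e-05). In the other direction Trpc6, a calcium channel, was at 0.108 and 0.147 against 4.59 and 8.57 (log2 -2.70 ± 0.30, adjusted p = 4.25e-06), Tek, the angiopoietin receptor Tie2, at 1.02 and 0.577 against 6.23 and 8.801 (log2 -2.24 ± 0.31, adjusted p = 3.91e-05), and the homeobox gene Meis1 at 14.7 and 18.9 against 42.6 and 54.7 (log2 -1.48 ± 0.25, adjusted p = 0.000399). These 3 are also genes of megakaryocytes or their precursors.

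Genes of the sorted antigens are given as a check of the gates and not as a finding. Fcgr3 and Fcgr2b, which encode CD16 and CD32, were at 85.04 and 95.5 and at 49.3 and 39.99 RPKM in GMP, and at 1.34 and 0.814 and at 5.08 and 4.0998 in MEP. Slamf1, which encodes CD150, was at 0.0934 and 0.125 RPKM in GMP and 8.93 and 10.1 in MEP. Itga2b, which encodes CD41, was transcribed in both gates although both were CD41-, at 34.6 and 28.2 against 133 and 163 RPKM (log2 -2.20 ± 0.24, adjusted p = 4.26e-06). Eng, which encodes CD105, was at 25.8 and 19.04 against 42.6 and 43.4 RPKM (log2 -0.92 ± 0.25, adjusted p = 0.0150). Kit was at 70.01 and 65.2 against 73.2 and 117 (log2 -0.45 ± 0.26, adjusted p = 0.355). Ly6a, which encodes Sca-1, was called higher in GMP although both gates were sca- (log2 1.03 ± 0.32, adjusted p = 0.0349). It was not called by limma with quantile normalization (adjusted p = 0.0559) or with the replicate block (0.121).

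Lists of other cell types held members near 0 and members that were expressed. Of 32 lymphoid genes listed 11 were tested, with 6 higher in GMP and 0 lower (median 0.81); 3 and 1 were higher without GMP replicate 1 or 2. The T cell genes Cd3e and Cd8a and the B cell genes Pax5 and Ebf1 were below 0.3 RPKM in all 4 libraries. Notch1, a receptor of T cell commitment, was at 10.7 and 9.396 RPKM in GMP and 0.562 and 1.46 in MEP (log2 2.49 ± 0.32, adjusted p = 2.18e-05). Summed over the list, lymphoid genes held 202 RPKM in each GMP library and 340 and 206 in MEP, of which Ptprcap, a CD45-associated protein of many leukocytes, made up 145 and 149.6 and 313 and 182. Of 20 stromal and endothelial genes 7 were tested, with 3 higher and 3 lower (1 higher without GMP replicate 1), and the list summed to 95.6 and 84.4 RPKM in GMP and 68.6 and 79.1 in MEP. The member not called was Pdgfrb, a growth factor receptor of stroma, at 10.4 and 9.29 against 5.71 and 7.24 RPKM (log2 0.55 ± 0.30, adjusted p = 0.322). The stromal genes Cxcl12, Col1a1, Lepr and Dcn were below 0.2 RPKM in all 4 libraries. Col1a2, a collagen chain, was at 0.00976 and 0.0187 RPKM in GMP and 1.99 and 1.94 in MEP (log2 -1.55 ± 0.22, adjusted p = 7.52e-05). The part that other cells play in these values was not tested.

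Few genes of cell division and growth were called. Of 34 DNA replication genes 2 were higher in GMP, Rrm2 (log2 1.22 ± 0.24, adjusted p = 0.00120; 0.0516 without GMP replicate 1) and Cdc45 (log2 0.79 ± 0.24, adjusted p = 0.0355; 0.371 and 0.241 without GMP replicate 1 or 2), and 0 were lower (median 0.16). With the length trend removed, 6 were higher, as were 2 mitotic and 2 sterol synthesis genes. None of 32 mitotic genes was called by limma at an adjusted p under 0.05 (median 0.10), and 3 had an unadjusted p under 0.05. Mki67, a gene of dividing cells, was at 27.02 and 22.9 RPKM in GMP and 13.6 and 46.5 in MEP, so that the MEP libraries lay on both sides of GMP. Without MEP replicate 2, 5 mitotic genes were higher in GMP, and without MEP replicate 1, 4 were lower. Of 30 ribosome biogenesis genes, 49 cytosolic ribosomal protein genes and 19 sterol synthesis genes none was called (medians -0.18, -0.21 and -0.05), and 1, 2 and 1 of them had an unadjusted limma p under 0.05. Leaving out 1 MEP library gave calls among ribosomal protein genes and among sterol synthesis genes. In each list their main direction depended on which MEP library was left out. Ribosomal protein genes held 17.7% and 18.4% of summed RPKM in GMP and 24.5% and 17.7% in MEP. For these lists the spread within MEP limits what can be seen.

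Of 19 cell cycle control genes 2 were higher in GMP, Cdkn1a and Mycl1, and 3 were lower, Mycn, Cdkn1c and Cdkn2d. The counts were 1 and 1 without either GMP replicate, 6 were lower without MEP replicate 1 and 4 higher without MEP replicate 2. The inhibitor genes Cdkn1c (log2 -0.89 ± 0.23, adjusted p = 0.0114; 0.136 and 0.181 without GMP replicate 1 or 2) and Cdkn2d (log2 -1.07 ± 0.29, adjusted p = 0.0162; 0.162 and 0.276) did not keep their calls. The gene of the inhibitor p21, Cdkn1a, was at 9.67 and 10.2 RPKM in GMP and 3.69 and 3.29 in MEP (log2 1.28 ± 0.31, adjusted p = 0.00684; 0.169 and 0.226 without GMP replicate 1 or 2). Interferon response genes had a median of -0.56, with 3 of 28 lower and 0 higher. The count lower was 11 and 12 without MEP replicate 1 or 2 and 1 without either GMP replicate. It was 11 with all 10 libraries in the fit and with the length trend removed, 6 with quantile normalization and with median centring, and 1 without a filter. Isg20, an exonuclease that degrades viral RNA, was at 8.54 and 6.07 RPKM in GMP and 36.3 and 26.7 in MEP (log2 -1.97 ± 0.28, adjusted p = 7.11e-05). Of 16 immediate early and heat shock genes 1, Egr1, was called, and without MEP replicate 2, 4 were lower. Fos and Jun, transcription factors induced by stress and handling, were low in replicate 2 of both gates: Fos was at 6.32 and 0.825 RPKM in GMP and 4.44 and 0.284 in MEP, and Jun at 13.9 and 1.66 against 19.5 and 2.83.

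The same gap between gates was then measured in Runx1-deleted marrow, which has libraries of its own for each gate. The question was where the distance between the gates differs with the genotype. The level of Runx1, 63.02 and 72.3 RPKM in Runx1-deleted GMP and 41.5 and 36.8 in Runx1-deleted MEP, does not check the deletion, since RPKM covers the whole gene. The genes were those tested in wild type, so a gene that reaches 1 RPKM only in Runx1-deleted cells could not enter. The gap differed for 142 of 10363 genes, 64 with a value above 0 for wild type minus deleted (0.618%) and 78 below 0 (0.753%). An unadjusted p under 0.05 was reached by 944. With only the 8 GMP and MEP libraries in the fit, 107 gaps differed. Of the list members 27 were among the 142. The count of 142 was 59 when replicate 2 of wild-type GMP was left out. It was 61 and 39 when either Runx1-deleted GMP library was left out, in replicate order, 56 and 45 for Runx1-deleted MEP, and 293 and 402 for wild-type MEP.

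Of 19 tested mast cell and basophil genes 5 had a larger gap in wild type. Of these, Gzmb and Cma1 reached 1 RPKM only in wild-type GMP, so the levels that admitted them also make their wild-type gap. Prss34 had a gap of 5.84 in wild type and 0.31 in Runx1-deleted cells, where GMP held 0.434 and 0.303 RPKM (difference of gaps 5.53 ± 0.34, adjusted p = 2.97e-05). Gzmb, granzyme B, had gaps of 4.68 and 0.29 (4.39 ± 0.24, adjusted p = 1.79e-05). Its levels were 0.296 and 0.214 RPKM in Runx1-deleted GMP and 0.0189 and 0.0334 in Runx1-deleted MEP. Mcpt8 had gaps of 6.27 and 3.18 (3.09 ± 0.34, adjusted p = 0.00118; adjusted p = 0.480 with a pseudocount of 0.1). Fcer1a, the IgE-binding receptor chain, had gaps of 2.63 and 0.02 (2.60 ± 0.26, adjusted p = 0.000590; 0.117 with a pseudocount of 0.1), and Cma1, a mast cell chymase, 1.82 and 0.11 (1.71 ± 0.19, adjusted p = 0.00109). In Runx1-deleted cells Fcer1a was at 0.106 and 0 RPKM in GMP and 0.0261 and 0.0461 in MEP. Cma1 was at 0.169 and 0.0403 against 0.0249 and 0.0220. At such levels log2(RPKM + 1) compresses a difference between the gates, so a gap near 0 does not show equal gates. Cd24a turned from higher in GMP to higher in MEP, with gaps of 1.03 and -1.59 (2.63 ± 0.27, adjusted p = 0.000841).

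Of 21 tested platelet receptors 4 had a gap below that of Runx1-deleted marrow, with the level in MEP further above GMP in wild type on the log2 scale. In RPKM this does not hold for Gp5, F2r and Treml1, which were higher in both gates of Runx1-deleted marrow than in wild type. Gp5 was at 10.3 and 12.5 RPKM in Runx1-deleted GMP and 89.9 and 78.6 in Runx1-deleted MEP. Treml1 was at 14.3 and 20.1 RPKM in Runx1-deleted GMP and 129 and 121 in Runx1-deleted MEP. F2r had gaps of -4.63 and -2.02, with 34.2 and 38.4 RPKM in Runx1-deleted GMP and 143 and 158 in Runx1-deleted MEP (difference -2.61 ± 0.24, adjusted p = 0.000364). Gp5 had gaps of -4.54 and -2.78 (-1.76 ± 0.25, adjusted p = 0.00722; 0.0628 without Runx1-deleted GMP replicate 2). Ptgs1, cyclooxygenase 1, turned from higher in MEP to higher in GMP, with gaps of -1.12 and 1.22 (-2.34 ± 0.25, adjusted p = 0.000899). Nkg7 had gaps of 0.98 and 3.91 (-2.92 ± 0.43, adjusted p = 0.00862), and Col1a2 -1.55 and -0.17 (-1.37 ± 0.17, adjusted p = 0.00246). Col1a2 reached 1 RPKM only in wild-type MEP, so the levels that admitted it also make its wild-type gap. In Runx1-deleted MEP it was at 0.115 and 0.161 RPKM. The wild-type libraries come from lanes 2, 3 and 5 and the Runx1-deleted GMP and MEP libraries from lane 5, so lane and genotype cannot be told apart in full.

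**Figure D5:**
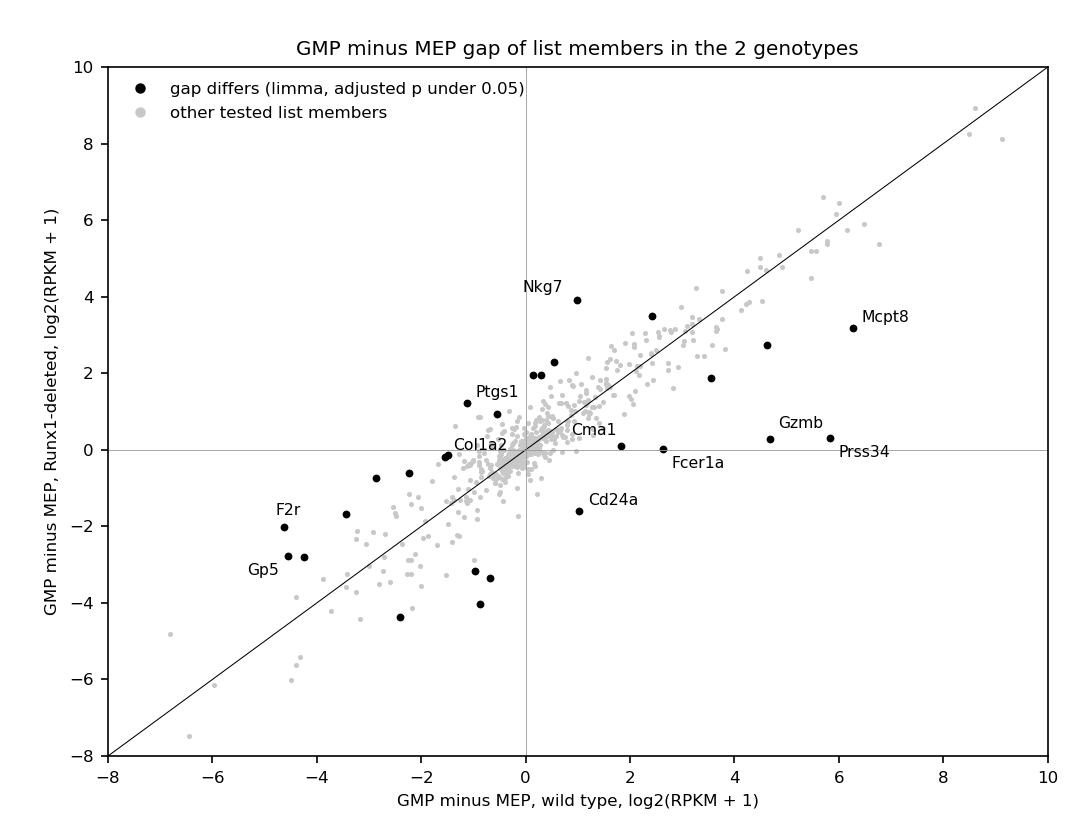
Difference GMP minus MEP in log2(RPKM + 1) of each tested list member in wild type (x axis) and in Runx1-deleted marrow (y axis), with the members whose gap differs in black and the line at equal gaps. Prss34 and Gzmb lie near 0 on the y axis against more than 4 on the x axis, and F2r and Gp5 lie above the line.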

How the data were processed

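RNA of sorted bone marrow progenitors was sequenced, and the library kit was either of 2, with no record of which library had which. RPKM values were deposited by the authors in 1 table of 10 libraries, with mm9 as the build per the submitters' processing notes. For the aligner and the counter, names were not given in the sources used here. The table also holds p-values and FDR values of Baggerley's test, per the file headers. By the authors' deposited table, an FDR under 0.05 between these gates was held by 721 genes, 651 of them among the called genes.

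The members and lists were chosen with earlier results of these data known. Read totals were recovered from the steps of the RPKM values: 19335 genes gave whole reads in every library (tolerance 0.01 reads), 3904 were at 0 throughout and 1 gave values that were not whole. Differences were tested with limma 3.58.1 (R 4.3.3), with an intensity trend, on log2(RPKM + 1) of the 4 wild-type libraries (2 residual degrees of freedom), with Benjamini-Hochberg adjustment. The difference of gaps was tested as an interaction in a fit of all 10 libraries, XMP included, on the genes tested in wild type. On simulated data of 10363 genes for GMP minus MEP, 64 of 100 genes changed 2-fold and 100 of 100 changed 4-fold were recovered, with 15 false calls. Changes were set only in genes with a mean log2(RPKM + 1) above that of 5 RPKM. Both gates had the same spread and no length trend. In the data the median log2 difference of replicates was 0.206 in GMP and 0.342 in MEP. Recovery at lower levels or with unequal spread was not tested.

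Named genes are the 12 largest differences per direction (mean of at least 5 RPKM in the higher gate), up to 4 members per direction and list by p, the transcription factor, RUNX and sort marker lists, the 5 marker genes, and up to 6 list members per direction in the difference of gaps. Further genes were named after their values were seen: those at low levels given as such, and Srgn, Cyba, Rac1, Myc, Mki67, Fos, Jun, Pfkp, Pfkl, Ptprcap, Pdgfrb and those said so in the text. Replicate numbers were not shown to pair the libraries (r = -0.116, 2 per gate). Promoters were matched by symbol, and figures drawn with Python 3.11.15 and matplotlib 3.10.9. The alternatives were other scalings, filters, pseudocounts, a length correction, a replicate block and leaving out each library. Some genes that are counted in their lists are not reported here by name.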

Additional observations from a re-analysis of the deposited data

Results flagged for a closer look

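The distance between GMP and MEP differed with the genotype for 142 genes by limma's interaction term, and 11 list members among those with the smallest p are given as wild-type gap minus Runx1-deleted gap on the log2(RPKM + 1) scale. Above 0 were Prss34 with 5.53, Gzmb with 4.39, Mcpt8 with 3.09, Cd24a with 2.63, Fcer1a with 2.60 and Cma1 with 1.71. Below 0 were Nkg7 with -2.92, F2r with -2.61, Ptgs1 with -2.34, Gp5 with -1.76 and Col1a2 with -1.37. Adjusted p-values, and the settings in which Mcpt8, Fcer1a and Gp5 were not called, are given with the gaps above. So is the limit for Gzmb, Cma1 and Col1a2, which were tested only through the wild-type gate where they are high.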

How the results depend on the processing

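The 1583 genes called between the gates were 1003 among genes with a mean of at least 5 RPKM (608 higher and 395 lower). With all 10 libraries in the fit 2271 genes were called (1231 higher and 1040 lower). With the length trend removed there were 2339 (1395 higher and 944 lower). Leaving out 1 library gave 729 to 2848 called genes, 499 to 1793 higher and 218 to 1567 lower. Where 1 library of a gate was left, it was assumed to vary like the other gate. The share of higher genes among the calls was 60.3%, 43.1% without MEP replicate 1 and 70.1% without GMP replicate 2. The 142 gaps that differed were 71 with a pseudocount of 0.1, 250 without a filter, 56 at a mean of at least 5 RPKM and 289 with the length trend removed, and 39 to 402 without 1 library.

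With the replicate block 1415 genes were called (888 higher and 527 lower), and 117 gaps differed. The deviations of same-numbered libraries correlated at -0.116, and with the numbers crossed, a setting chosen after seeing the data, 2066 genes were called (1178 higher and 888 lower). Of 132 called genes that the rule names, 103 and 100 kept their call without GMP replicate 1 or 2, and 131 without either MEP replicate. In 3 uncalled genes the direction turned and the new value was called: Foxo3 (0.77) and Mki67 (0.83) without MEP replicate 2, and Jun (0.72) without MEP replicate 1. Without 1 library Foxo3 lay between -1.13 and 0.77, Mki67 between -0.88 and 0.83 and Jun between -1.74 and 0.75; the cause was not tested. With 2 libraries a gate, 2-fold changes are often missed, and the low depth of GMP replicate 2 limits genes near 1 RPKM.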
